A study of Mus musculus with 60 samples.

Results

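The distal and the proximal piece of the mouse lower jaw (mandible) were compared at E11.5 (E for embryonic day) across all measured genes. The comparison takes the 3 arrays titled D_Mandible at this age, the distal group, and the 3 titled P_Mandible, the proximal group, which are 6 of the 60 arrays of the series. All 6 arrays come from C57Bl/6 embryos, carry the same batch number in their titles, batch 3, and differ in the labels by position and replicate number alone. The labels give no mutation, transgene or treatment for any group. They do not say where the jaw was cut, or whether the 3 arrays of a group hold separate embryos, litters or pools, so the p-values measure only the spread between arrays, which may be technical. The series, from the FaceBase consortium, profiled both pieces of mandible and maxilla (upper jaw) at 5 ages from E10.5 to E14.5, in 20 groups of 3 Affymetrix arrays. Its stated aim is a genome-wide account of expression while the jaws form. Each gene was read from a single probe set, the one with the highest mean over all 60 arrays, which gave 18193 genes.

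The mandible grows from the first pharyngeal arch, in which neural crest mesenchyme is wrapped in surface ectoderm and lined by endoderm, around a core of muscle precursors. Position along the arch is set by signals from the epithelium. Endothelin and Bmp signals switch on Dlx genes, Hand2 and Msx genes towards the tip, where the midline and the incisors form. Fgf signals from the proximal ectoderm act on genes such as Barx1 and Dlx1 nearer the hinge, where the jaw joint and the molars form.

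Signals are on the log2 scale, where 1 unit is a 2-fold change. The arrays carry no detection calls. Over the 60 arrays the 25th percentile of signal reached at most 4.78, and a gene whose group mean did not exceed that value is taken as not shown to be present there, and a fold against such a group is given as at least the fold over 4.78. Called genes are those with an adjusted p under 0.05 in limma. In pieces of tissue, fewer cells of a type and less RNA per cell cannot be told apart. The number of arrays, 3 a group, limits the precision of every value.

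The tissue labels name the pieces as distal and proximal bone. Hand2, a transcription factor of the lower jaw's mesenchyme, averaged 13.03 in distal and 11.67 in proximal mandible, against 5.24 and 6.56 in distal and proximal maxilla of the same age. Pitx1, a homeobox gene that marks lower against upper jaw, averaged 9.82 and 11.23 in distal and proximal mandible, against 7.63 and 7.19 in distal and proximal maxilla. Prrx1, a homeobox gene of limb and face mesenchyme, lay between 12.84 and 13.04 on all 6 arrays. Hand2 and Pitx1 were thus higher in both mandible pieces than in either maxilla piece. Of 9 measured bone genes, 2 were at or under 4.78 in both pieces, and these are Ibsp and Dmp1, matrix proteins of mineralised bone (named after their values were seen). Ibsp averaged 3.75 in distal and 4.04 in proximal pieces, and Dmp1 3.44 and 3.82.

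The 6 arrays varied widely within their groups. The median within-group SD over genes was 0.144 in distal and 0.12 in proximal E11.5 mandible, the highest values of the 20 groups, whose others ran from 0.061 to 0.113. An SD over 0.5 was found for 298 genes in the distal and 378 in the proximal group, against 9 in distal and 1 in proximal maxilla of the same age and batch and up to 456 in another group of the series. By the median absolute deviation over genes, distal replicate 3 stood furthest from its partners (0.189), with a median signal of 6.31 over all probe sets, against 6.15 and 6.13 in replicates 1 and 2. In the proximal group replicate 1 stood furthest (0.158), with a median of 6.25, against 6.13 in both other replicates. Medians of the other 54 arrays lay between 6.06 and 6.21. Distal replicate 2 correlated across genes about as well with proximal replicate 1 (Pearson's r 0.9926) as with distal replicate 3 (0.9927), while proximal replicates 2 and 3 reached 0.9974.

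Skeletal muscle genes were among those with wide spread. Over 26 skeletal muscle genes the mean signal was 7.29, 8.28 and 7.51 in distal replicates 1 to 3, against 9.06, 7.56 and 8.09 in proximal replicates 1 to 3, so the groups overlapped. At E10.5 the same list lay at 6.32 to 6.38 in distal and 7.21 to 7.27 in proximal mandible, and at E12.5 at 6.40 to 6.43 and 9.59 to 9.62. Both other ages therefore kept the 2 pieces apart with little spread. Of the genes on proximal replicate 1, 223 deviated by more than 1 from the mean of its partners, 209 of them upwards. The same count was 114 on distal replicate 2, 104 of them upwards, 71 on distal replicate 3, and 110 on proximal replicate 2, 107 of them downwards. Upwards, proximal replicate 1 deviated most in Myom2, a sarcomere protein, by 2.88 and Panx3, a channel of cartilage and bone cells, by 2.51. Next on this array came Grik3, a glutamate receptor subunit, by 2.33, the embryonic myosin light chain Myl4 by 2.29 and the prostaglandin receptor gene Ptgfr by 2.26. Downwards the same array deviated most in Hemgn, a gene of red cell precursors, by -1.83, Dlx1as by -1.80, Gbx2 by -1.68, Foxd1 by -1.38 and Dlx4os by -1.32. On distal replicate 3, Cox7c stood 1.95, Dlx1as 1.70, Firre 1.22, Sim2 1.22 and Foxa1 1.19 above its partners, and Lmod3 1.99, Six4 1.84, Csrp3 1.69, Chodl 1.66 and Stmn2 1.64 below them. Lmod3 and Csrp3 are muscle genes and Six4 is a regulator of muscle precursors. Mean levels of the bone and cartilage lists followed the same arrays: bone genes averaged 7.04, 7.50 and 6.91 on the distal arrays and 7.87, 6.95 and 7.13 on the proximal arrays. What part this plays in the results below was not tested, and each main count is also given without the arrays concerned.

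**Figure D1:**
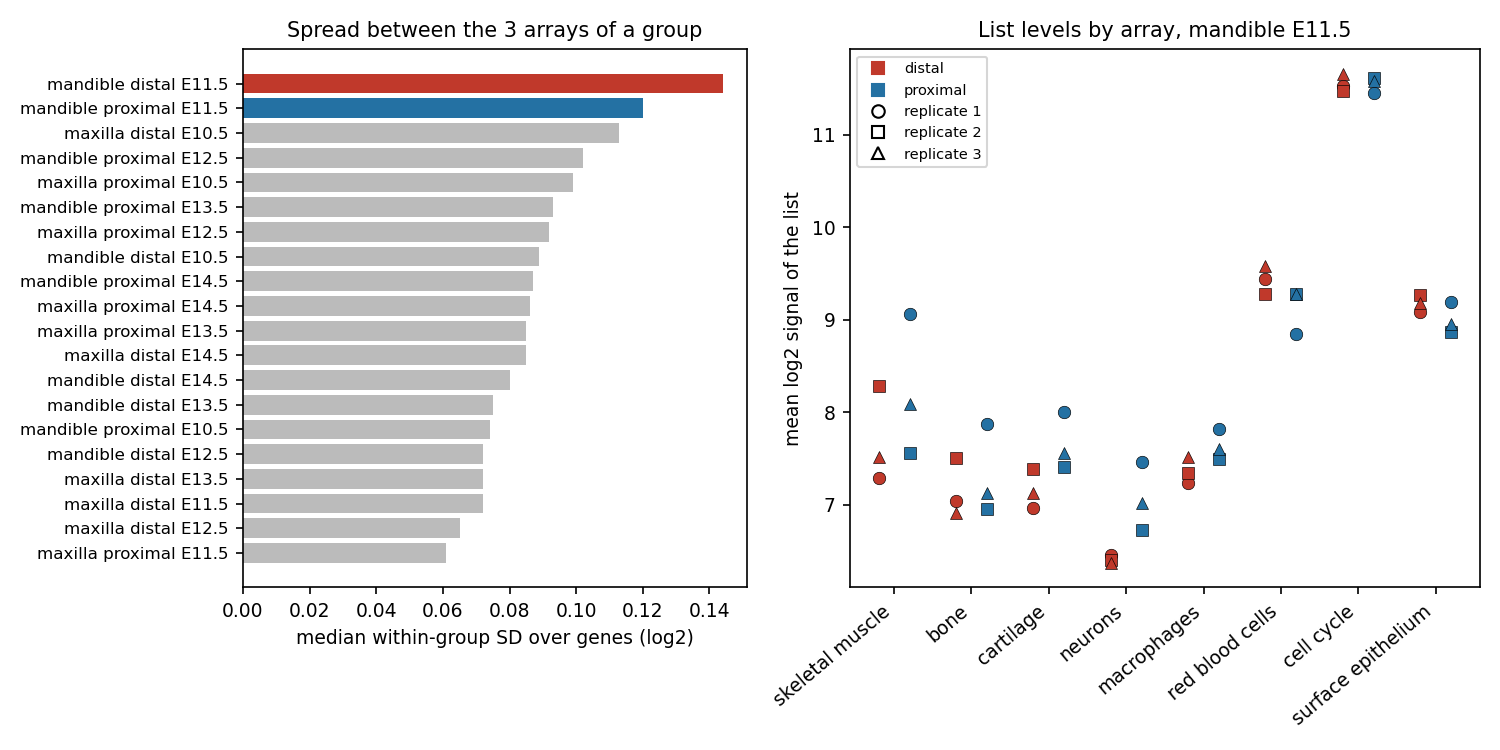
Left, the median within-group SD over 18193 genes (log2) for each of the 20 groups of 3 arrays, with distal mandible at E11.5 (0.144) and proximal mandible at E11.5 (0.12) at the top. Right, the mean log2 signal of 8 gene lists on each of the 6 arrays, distal left of proximal, with a symbol for each replicate. Within their own groups, proximal replicate 1 and distal replicate 2 lie highest in muscle, bone and cartilage genes.

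In all, 300 of 18193 genes (1.65%) were called between the pieces, 88 higher distally (0.484%) and 212 lower (1.17%), and 1660 had an unadjusted p under 0.05. Of the called genes 149 differed at least 2-fold, 36 higher (0.198%) and 113 lower (0.621%). The median difference over all genes was 0.006. The 3 distal values lay wholly above the 3 proximal ones for 1244 genes (6.84%) and wholly below for 1393 (7.66%). The count moved with single arrays. It was 138 (34 higher, 104 lower) without distal replicate 1 and 144 (33 higher, 111 lower) without proximal replicate 3. The number called higher was 38 without distal replicate 3, and 188, beside 211 lower, without proximal replicate 1. Without distal replicate 3 and proximal replicate 1 together 681 genes were called (282 higher, 399 lower). In an alternative chosen after seeing the data, without distal replicate 2 and proximal replicate 1, 570 were called (242 higher, 328 lower). When the spread was pooled over all 60 arrays, which takes these groups for as tight as the others, 1625 genes (8.93%) were called, 578 higher (3.18%) and 1047 lower (5.75%).

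Among the 15 named genes higher distally, Alx1, a homeobox gene of facial mesenchyme, stood out. Alx1 had 11.61, 11.98 and 11.29 on the distal arrays, against 8.63, 7.48 and 7.54 on the proximal arrays. Its difference was 3.74 (SE 0.27, adjusted p = 0.000111), a 13.4-fold higher signal, and all distal arrays lay far above all proximal ones. Msx2, a homeobox gene that responds to Bmp signals, had 10.35, 10.46 and 10.49 distally, against 8.60, 8.36 and 8.46 proximally. With a difference of 1.96 (SE 0.10) it had the tightest replicates of the leading genes and an adjusted p of 8.47e-06. Gata3, a zinc finger transcription factor of arch ectoderm and mesenchyme, had 8.09, 7.68 and 8.16 distally, against 6.37, 6.21 and 5.84 proximally (difference 1.84, SE 0.18, adjusted p = 0.000386). Dkk1, a secreted inhibitor of Wnt signals, had 10.72, 10.81 and 10.43 distally, against 9.41, 8.42 and 8.80 proximally, and was 3.43-fold higher (adjusted p = 0.00106).

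None of the 15 named genes higher distally overlapped between groups, but they were chosen by their differences on these same arrays. Of all genes 6.84% lay wholly higher distally. The other 11 of the 15 were 2.70-fold to 3.98-fold higher (adjusted p up to 0.0214). They include regulators of transcription. Cited1, a co-regulator, averaged 11.52 ± 0.31 in distal and 9.70 ± 0.10 in proximal pieces (SD, n = 3 each), and Sall4, a zinc finger protein, averaged 8.13 ± 0.28 and 6.54 ± 0.23. Enzymes were Masp1, a serine protease of the lectin complement pathway, Dpep1, a membrane dipeptidase, Aldh1a7, an aldehyde dehydrogenase close in sequence to Aldh1a1, Ckmt1, a mitochondrial creatine kinase, and Dio2, which activates thyroid hormone. Aldh1a7 had 9.67, 9.47 and 9.52 distally, against 8.25, 7.91 and 8.07 proximally. Dlg2, a scaffold protein of synapses, Lrrn3, a leucine-rich repeat membrane protein, Rgcc, a regulator of the cell cycle, and Hpse2, a heparanase relative, were the others. Hpse2 varied widely among distal arrays, with 6.76, 7.61 and 6.22 on the distal arrays, against 5.34, 5.25 and 5.11 on the proximal arrays.

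The 15 named genes lower distally were 4.75-fold to 20.1-fold lower (adjusted p up to 0.034). Among them Dlx1as, an RNA antisense to Dlx1, had 5.65, 5.03 and 7.04 on the distal arrays, against 9.04, 10.92 and 10.76 on the proximal arrays. Its difference was -4.33 (SE 0.53, adjusted p = 0.00144), and the groups stayed apart even with this spread. With limma's robust variance estimate Dlx1as was no longer called (adjusted p = 0.164), nor was Gbx2 (adjusted p = 0.16). Sim2, a bHLH-PAS transcription factor, had 4.39, 3.97 and 5.40 distally, against 7.69, 8.70 and 8.57 proximally, so it was at least 11.6-fold lower distally. Hoxd1, a Hox gene, was at least 4.27-fold lower, with no distal array above 4.83 and a wide 8.18, 5.54 and 6.90 on the proximal arrays. Gbx2, a homeobox gene of arch ectoderm and hindbrain, had 4.83, 4.36 and 5.36 distally, against 6.73, 8.48 and 8.35 proximally.

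Of the other 11 genes, 4 are transcription factors of mesenchyme. Shox2, a homeobox gene needed for palate and jaw joint development, had 7.73, 8.76 and 8.78 on the distal arrays, against 11.54, 11.28 and 11.29 on the proximal arrays, a difference of -2.95 (SE 0.23, adjusted p = 0.000166). The T-box gene Tbx18 had 6.93, 8.05 and 6.91 distally, against 10.29, 9.90 and 9.89 proximally. Its relative Tbx15 had 7.81, 7.42 and 7.40 distally, against 10.23, 9.76 and 9.79 proximally. Both T-box genes thus separated the pieces on every array. Barx1, a homeobox gene of molar mesenchyme, averaged 9.17 ± 0.38 in distal and 11.48 ± 0.40 in proximal pieces, and was 4.94-fold lower distally (adjusted p = 0.000321). Lox, the enzyme that crosslinks collagen and elastin, averaged 8.01 ± 0.47 in distal and 10.45 ± 0.24 in proximal pieces. Bmper, a secreted Bmp-binding protein, averaged 6.81 ± 0.72 and 9.15 ± 0.15. The remaining 5 were Shisa3, a modulator of Wnt and Fgf receptors, Pantr1, a noncoding RNA next to Pou3f3, Corin, a membrane protease that activates natriuretic peptide, Fabp7, a fatty acid binding protein of glial cells, and Nefl, a neurofilament subunit. Of the 30 named genes 17 had more than 1 probe set, and in 16 of these all probe sets had the same sign. The exception was Lox, whose 3 probe sets ran from -2.61 to 0.04, with 2 called lower and none called higher. Sizes agreed less than signs. Sim2 ran from -3.735 to -0.163 and Msx2 from 0.443 to 1.958, each with 1 of 2 probe sets called. Dio2 ran from 0.213 to 1.435, with 1 of 3 called. Dlg2 ran from 0.295 to 2.045 (2 of 3 called) and Masp1 from 0.163 to 2.336 (2 of 5 called). In the rest of the genes with more than 1 probe set, all probe sets were called.

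**Figure D2:**
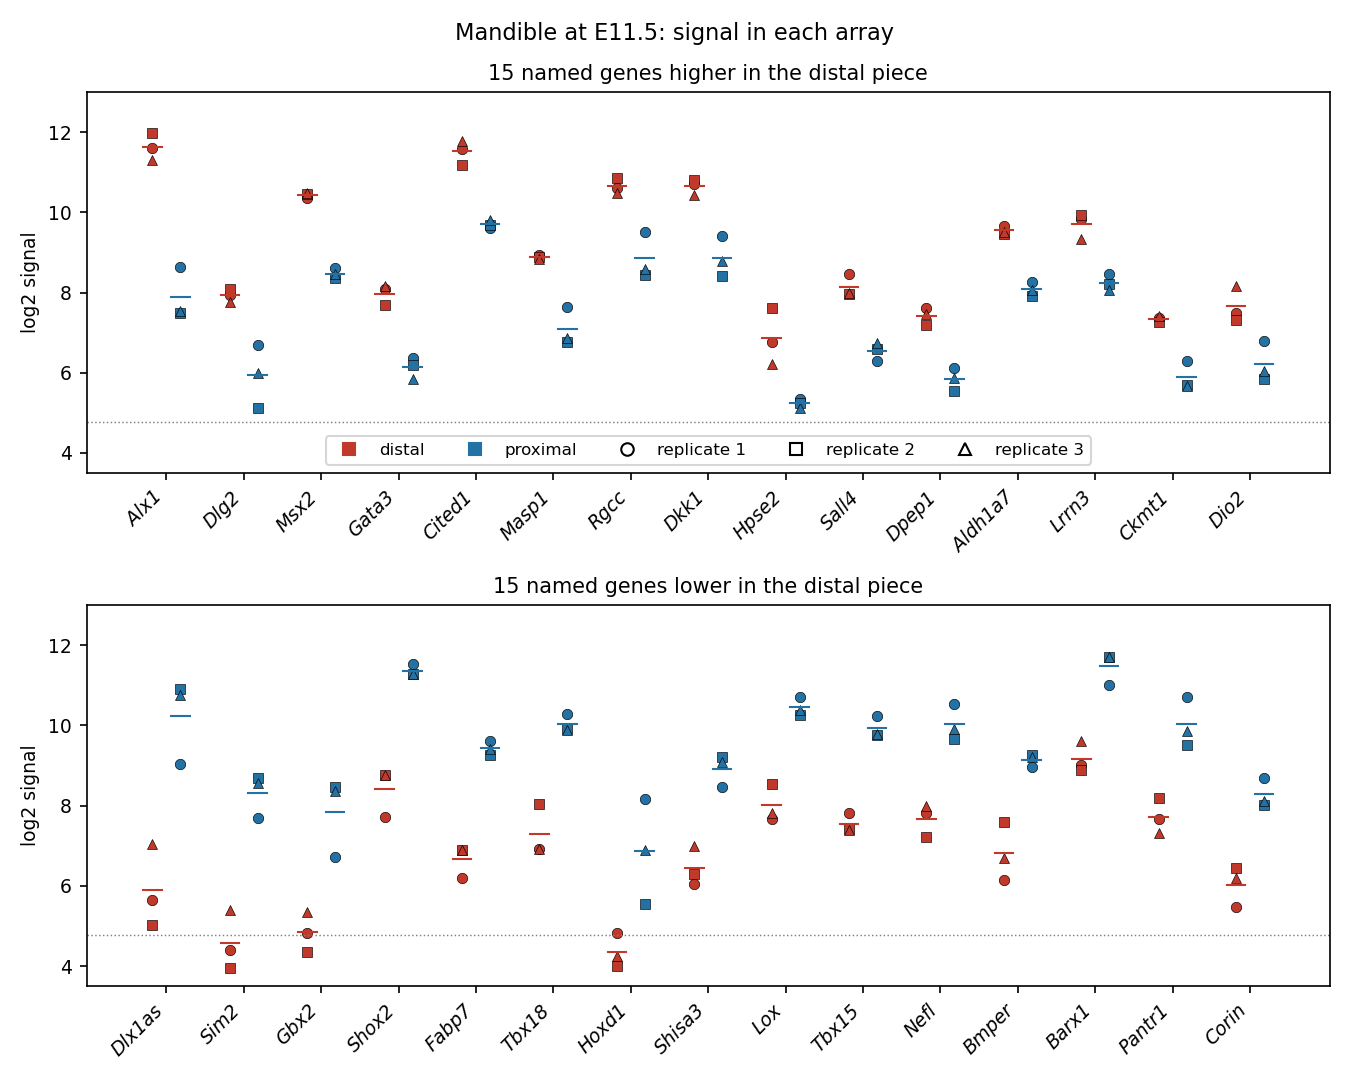
Log2 signal of the 15 named genes higher (top) and the 15 lower (bottom) in the distal mandible at E11.5, with the 3 distal arrays left of the 3 proximal arrays, a symbol for each replicate and a bar at each group mean. The dotted line marks 4.78. No named gene has overlapping groups, but the genes were chosen by their differences on these arrays. Dlx1as and Hoxd1 spread widely within a group.

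Promoters are shown for 6 patterning genes that separate the pieces on every array, Msx2, Hand2 and Bmp4, higher distally, and Shox2, Tbx18 and Barx1, lower. Each is the 250 bases before the RefSeq start of the gene (build GRCm38.p6), written 5′ to 3′ on the gene's strand. Capitals mark TAATTA, a core that homeodomain proteins such as Msx and Alx can bind, and CATCTG on either strand (CAGATG on the other), an E-box that Hand proteins can bind. The regions are chr13:53472781-53473030 (Msx2) on the minus strand, chr8:57320733-57320982 (Hand2) on the plus strand, chr14:46390670-46390919 (Bmp4) and chr3:66981772-66982021 (Shox2) on the minus strand, chr9:87731261-87731510 (Tbx18) on the minus strand and chr13:48662786-48663035 (Barx1) on the plus strand.
Msx2: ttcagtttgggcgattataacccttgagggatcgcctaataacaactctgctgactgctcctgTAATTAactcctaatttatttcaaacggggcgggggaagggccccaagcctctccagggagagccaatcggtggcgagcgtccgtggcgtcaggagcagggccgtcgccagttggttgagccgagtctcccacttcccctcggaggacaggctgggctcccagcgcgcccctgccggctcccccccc
Hand2: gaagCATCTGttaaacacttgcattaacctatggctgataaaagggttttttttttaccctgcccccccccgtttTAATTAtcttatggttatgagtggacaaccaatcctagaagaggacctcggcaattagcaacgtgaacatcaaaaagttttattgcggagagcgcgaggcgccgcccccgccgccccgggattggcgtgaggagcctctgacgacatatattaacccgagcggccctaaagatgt
Bmp4: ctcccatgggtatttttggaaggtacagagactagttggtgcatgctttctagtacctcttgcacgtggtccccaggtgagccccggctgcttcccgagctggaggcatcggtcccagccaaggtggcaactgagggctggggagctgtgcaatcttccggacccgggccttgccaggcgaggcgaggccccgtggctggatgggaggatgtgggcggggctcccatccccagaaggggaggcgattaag
Shox2: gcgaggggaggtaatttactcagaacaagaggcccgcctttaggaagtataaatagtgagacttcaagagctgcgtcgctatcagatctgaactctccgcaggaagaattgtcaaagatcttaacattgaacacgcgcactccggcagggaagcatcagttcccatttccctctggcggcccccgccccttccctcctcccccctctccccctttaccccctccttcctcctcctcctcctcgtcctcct
Tbx18: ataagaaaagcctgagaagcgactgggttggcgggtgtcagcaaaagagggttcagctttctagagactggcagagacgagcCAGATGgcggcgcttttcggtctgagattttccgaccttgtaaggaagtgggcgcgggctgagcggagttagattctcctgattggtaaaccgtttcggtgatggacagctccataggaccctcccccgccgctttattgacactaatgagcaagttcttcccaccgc
Barx1: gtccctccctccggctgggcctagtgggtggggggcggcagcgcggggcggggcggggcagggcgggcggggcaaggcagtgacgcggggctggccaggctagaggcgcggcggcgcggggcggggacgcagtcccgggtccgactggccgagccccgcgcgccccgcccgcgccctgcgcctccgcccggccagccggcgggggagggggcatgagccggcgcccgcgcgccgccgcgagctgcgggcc
The Msx2 and Hand2 windows each hold 1 TAATTA, and those of Hand2 and Tbx18 each hold 1 CATCTG. The Bmp4, Shox2 and Barx1 windows hold neither, and that of Barx1 is 85.6% G or C. Over the 14368 measured genes with a promoter in the table, TAATTA occurred in 3.09% and CATCTG in 11.6%. The shares were 4.62% and 18.5% for the 65 genes higher distally that had one, and for the 152 lower ones 5 held TAATTA and 19 held CATCTG. The 2 motifs share no bases. These are descriptions of letters in a window, not of binding.

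Of 12 measured genes of distal arch patterning, 6 were called higher distally, 2 lower and 4 in neither direction, with a median difference of 0.52, against 0.006 over all genes. Hand2, which keeps the distal arch from taking on proximal identity, had 13.05, 13.16 and 12.89 on the distal arrays, against 11.98, 11.40 and 11.64 on the proximal arrays. Its difference was 1.36 (SE 0.13, adjusted p = 0.000338), with distal values all above proximal ones. Msx1, the partner of Msx2, had 11.96, 12.04 and 11.87 distally, against 11.19, 11.23 and 11.29 proximally, a smaller gap with tight replicates (difference 0.72, adjusted p = 0.000406). Isl1, a LIM homeobox gene of distal arch epithelium and of neurons, was 1.94-fold higher (difference 0.95, SE 0.19). The 2 listed genes that were lower distally are Pitx1, by -1.41 (SE 0.16), and Dlx3, by -1.08 (SE 0.22). With the mean of its probe sets Dlx3 differed by -0.59 and was not called (adjusted p = 0.131). Isl1, Pitx1 and Dlx3 are named after their values were seen. With each array left out in turn, 5 (without distal replicate 3) to 8 of the 12 were called.

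Bmp signalling genes leaned the same way: 7 of 17 were called higher, 0 lower, with a median of 0.35. Bmp4, the ligand of the distal epithelium and mesenchyme, had 11.53, 11.94 and 11.58 on the distal arrays, against 10.97, 10.18 and 10.31 on the proximal arrays, and was 2.29-fold higher (adjusted p = 0.00684). Bambi, a pseudoreceptor that dampens the pathway and is switched on by it, had 10.94, 11.18 and 11.22 distally, against 10.18, 9.88 and 9.97 proximally, a 2.15-fold difference. The direct target genes Id1 and Id2 and the inhibitor Smad7 were called with smaller differences of 0.34, 0.37 and 0.44 (named after their values were seen). Together with Msx1 and Msx2 these are the 7. The count was 3 without distal replicate 3, 4 without distal replicate 1 or proximal replicate 3, and 9 without distal replicate 3 and proximal replicate 1 together.

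Among 10 hedgehog genes Shh and Foxf2 were called higher, 0 lower, with a median of 0.09. Shh, the ligand made in oral epithelium, had 9.66, 9.66 and 9.53 on the distal arrays, against 8.54, 8.75 and 8.79 on the proximal arrays (difference 0.92, SE 0.11, adjusted p = 0.00105). Foxf2, a forkhead gene that mesenchyme expresses in response to it, had 8.31, 7.99 and 8.27 distally, against 6.75, 7.39 and 7.30 proximally, and was 2.06-fold higher. With the mean of its probe sets Foxf2 differed by 0.52 and was not called (adjusted p = 0.199). The pooled 60-array spread called 7 of the 10, 4 of them higher and 3 lower. A single array moved the count to 1 (without distal replicate 1 or 3) or 4 (without distal replicate 2 or proximal replicate 1).

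Of 17 Wnt genes, 3 were called higher and 2 lower, with a median of 0.27. Beside Dkk1, Wnt5a, a ligand of outgrowing mesenchyme, had 12.14, 12.51 and 11.92 on the distal arrays, against 11.76, 10.97 and 11.15 on the proximal arrays (difference 0.89, SE 0.19, adjusted p = 0.0409; named after its values were seen). Notum, a secreted enzyme that inactivates Wnt proteins, was 1.73-fold higher. The 2 called lower were secreted Wnt-binding proteins: Sfrp2 had 10.62, 10.86 and 10.69 distally, against 12.21, 11.64 and 11.79 proximally, and Sfrp1 differed by -0.96 (SE 0.11). So of the called inhibitors some were higher distally and some proximally. Between 3 and 6 of the 17 were called with an array left out, 3 of them without distal replicate 1, distal replicate 3 or proximal replicate 3.

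Genes of proximal arch patterning showed 6 of 12 members called lower distally and 1 higher, with a median of -0.79. Pou3f3, a POU factor of the upper part of the arch, had 9.04, 9.88 and 8.79 on the distal arrays, against 11.09, 10.80 and 10.84 on the proximal arrays (difference -1.68, SE 0.22, adjusted p = 0.00276). The nuclear receptor gene Nr2f1 had 10.80, 9.75 and 11.30 distally, against 12.06, 12.76 and 12.57 proximally. Its relative Nr2f2 averaged 10.16 ± 0.38 in distal and 11.39 ± 0.15 in proximal pieces. All 3 kept their groups apart on every array. Emx2, a homeobox gene, and Fgf8, the ligand of proximal arch ectoderm, were 3.85-fold and 2.22-fold lower distally. Eya1, a transcriptional co-activator, went the other way, by 0.57 (SE 0.11, adjusted p = 0.0271). Emx2 is named after its values were seen. The count of 7 was 4 without distal replicate 1 or proximal replicate 3, 9 without proximal replicate 1, and 3 without the mean-variance trend.

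The Dlx genes are known for nested expression that sets position along the arch. Of 11 genes of the Dlx and endothelin list, 4 were called lower and 1, Hand2, higher (median -0.63). Dlx1 had 8.05, 7.83 and 8.74 on the distal arrays, against 10.09, 10.46 and 10.33 on the proximal arrays, 4.25-fold lower distally (adjusted p = 0.000386). Dlx2, its neighbour in the genome, had 8.24, 8.16 and 8.58 distally, against 8.79, 9.63 and 9.57 proximally (difference -1.01, SE 0.21, adjusted p = 0.0377). Dlx4, of the Dlx3 pair, had 5.65, 5.65 and 5.09 distally, against 6.72, 7.60 and 7.44 proximally. Dlx5 and Dlx6, the pair that defines the lower jaw, were not called: Dlx5 had 10.02, 10.08 and 10.16 distally, against 10.31, 10.96 and 10.89 proximally, and Dlx6 had 9.44, 9.28 and 9.70, against 9.78, 10.54 and 10.39. The groups of both genes did not overlap (both named after their values were seen), but 7.66% of all genes likewise lay wholly lower distally. Leaving out any array but proximal replicate 1 lowered the count to 3, and leaving out that array raised it to 7.

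The list of maxillary and palate regulators had 8 of 14 members called lower distally in the mandible and 1 higher (median -0.98). Besides Sim2, Shox2, Tbx15 and Barx1, Meox2, a homeobox gene, had 7.99, 7.67 and 8.34 on the distal arrays, against 9.73, 9.75 and 9.70 on the proximal arrays (difference -1.73, SE 0.15, adjusted p = 0.000294). Osr2, a zinc finger gene of palate and tooth mesenchyme, was 4.32-fold lower, Mn1, a co-regulator needed for the palate, 1.87-fold lower, and Pax9, a paired box gene of palate and tooth, 1.55-fold lower. Tbx22, a T-box gene whose mutations cause cleft palate in humans, went the other way, with 8.10, 8.17 and 8.65 distally, against 7.50, 7.49 and 7.44 proximally. Osr2, Mn1, Pax9 and Tbx22 are named after their values were seen. Between 7 and 11 of the 14 were called with each array left out.

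**Figure D3:**
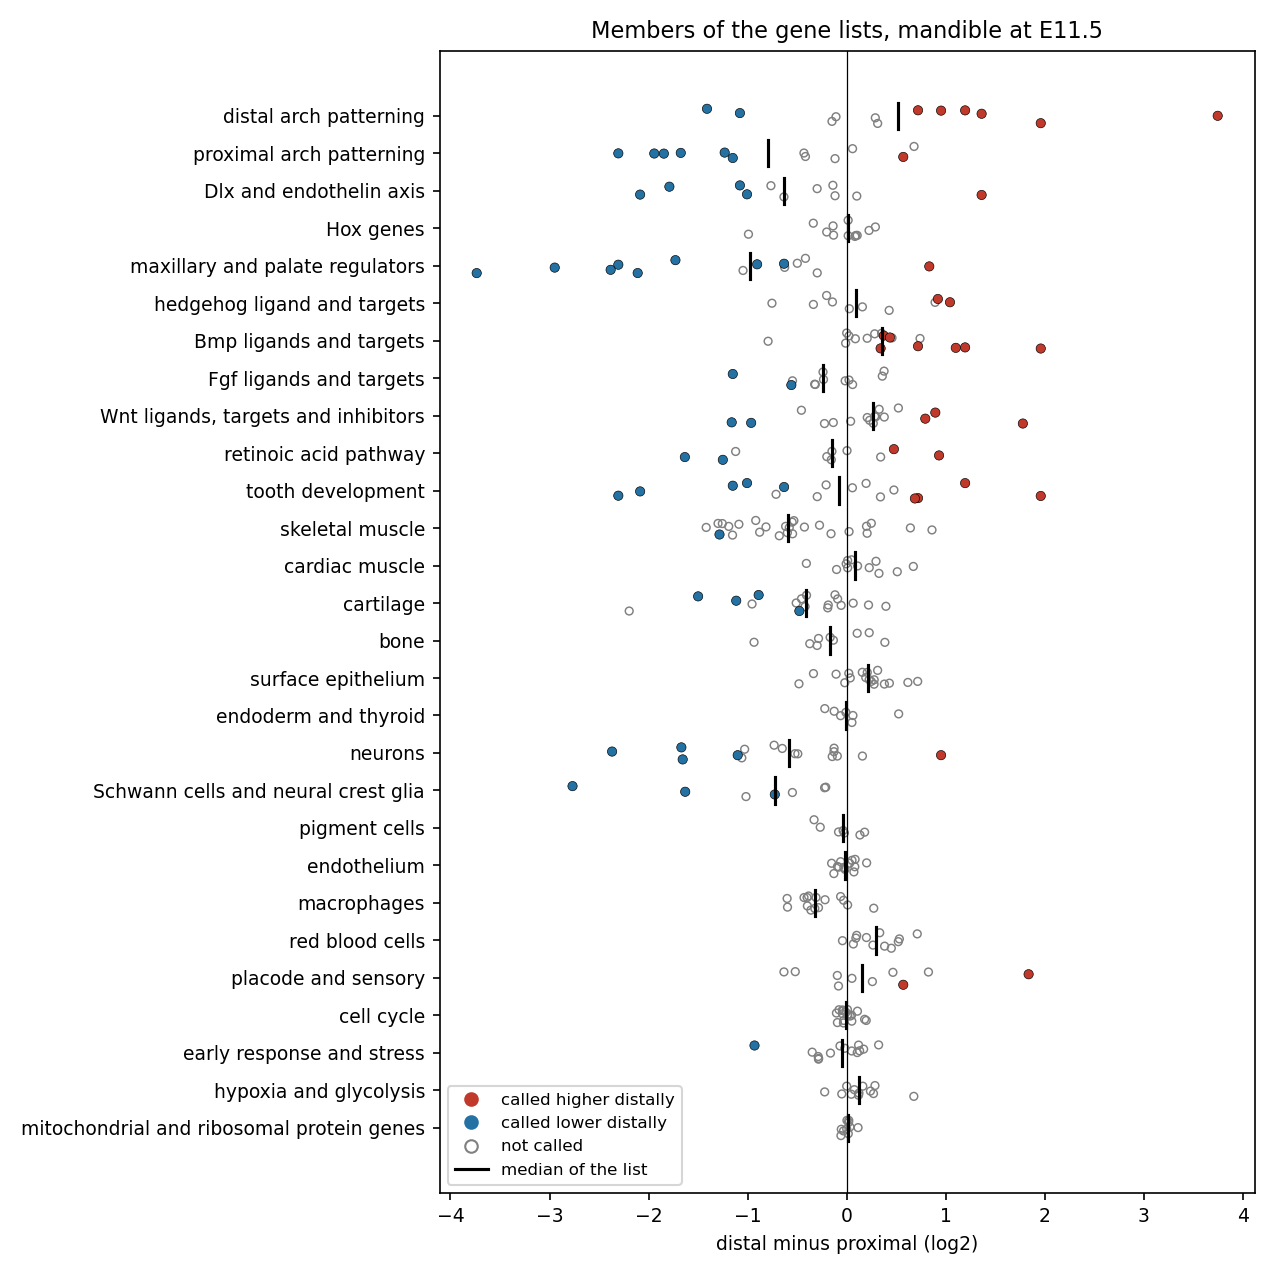
Distal minus proximal difference (log2) of each measured member of 28 gene lists in the mandible at E11.5, with members called higher distally in red, called lower in blue and not called as open circles. The vertical bar on each row is the list's median, 0.52 for distal arch patterning, -0.79 for proximal arch patterning and -0.98 for maxillary and palate regulators.

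Genes of retinoic acid metabolism split. Cyp26a1, which breaks the acid down, had 6.39, 6.41 and 6.96 on the distal arrays, against 8.11, 8.34 and 8.20 on the proximal arrays (difference -1.63, SE 0.17, adjusted p = 0.000501). Aldh1a2, which makes it, had 8.09, 8.72 and 8.60 distally, against 10.12, 9.45 and 9.60 proximally. So one synthetic and one degrading enzyme were lower together. Crabp1, a binding protein, was 1.39-fold higher distally, and Aldh1a1 at least 1.55-fold higher, from a proximal group under 4.78. Aldh1a1 was not called in the 60-array fit (adjusted p = 0.45), nor without distal replicate 1 (0.0592), distal replicate 3 (0.0584) or proximal replicate 3 (0.0556). In all 2 of 10 were called higher and 2 lower (median -0.15), and 2 in total without distal replicate 3. Of 12 Fgf genes 0 were called higher and 2 lower (median -0.24): Fgf8, and Dusp6, a phosphatase that Fgf signals switch on, with 10.88, 10.87 and 11.17 distally, against 11.43, 11.60 and 11.56 proximally. No Fgf gene was called without distal replicate 1 or without proximal replicate 3. Of 16 tooth genes 4 were called higher, namely Msx1, Msx2, Bmp4 and the epithelial factor gene Sp6, and 5 lower, namely Barx1, Dlx1, Dlx2, Fgf8 and Pax9, with a median of -0.08 (Sp6 named after its values were seen). Without distal replicate 1 or proximal replicate 3, 5 tooth genes were called.

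Cartilage genes were lower distally where called, 4 of 18, with 0 higher and a median of -0.41. Sox9, which commits mesenchyme to cartilage, had 8.12, 8.86 and 8.41 on the distal arrays, against 9.20, 9.47 and 9.39 on the proximal arrays (difference -0.89, SE 0.17, adjusted p = 0.0251). Col2a1, the main cartilage collagen and a Sox9 target, had 8.92, 9.49 and 9.41 distally, against 10.22, 10.46 and 10.48 proximally, and was 2.17-fold lower. Col11a1, which forms fibrils with it, was 1.39-fold lower, and Epyc, a small proteoglycan, at least 2.78-fold. These 4 kept their groups apart, and so, narrowly, did the mean of the whole list, whose highest distal array lay at 7.39 and whose lowest proximal array lay at 7.41. Without distal replicate 1, distal replicate 3 or proximal replicate 3, 2 of the 18 were called.

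Of 16 neuronal genes 4 were called lower distally, 1, Isl1, higher, and 11 in neither direction (median -0.59). Outside this list Nhlh2, a factor of young neurons, was called higher, by 1.25 (SE 0.26, adjusted p = 0.0407). Nefl had 7.82, 7.21 and 7.99 on the distal arrays, against 10.55, 9.67 and 9.90 on the proximal arrays (5.17-fold lower, adjusted p = 0.000406). Its partner subunit Nefm had 8.02, 7.40 and 8.38 distally, against 10.10, 9.29 and 9.42 proximally. Stmn3, a tubulin-binding protein of growing axons, was 2.15-fold lower, and Pou4f1, a POU factor of sensory neurons, at least 1.76-fold. Both neurofilament genes were highest on proximal replicate 1. Without distal replicate 3, 3 of the 16 were called. Pou4f1 was under 4.78 in all distal arrays and Neurod4 and Neurog2, factors of neurons in formation, were at or under 4.78 in both pieces (named after their values were seen). Of 7 genes of Schwann cells and crest-derived glia 3 were called lower and 0 higher (median -0.73). Fabp7 had 6.19, 6.89 and 6.91 distally, against 9.62, 9.27 and 9.40 proximally, Sox10, the glial and crest factor, was 1.65-fold lower, and Cdh19, a cadherin of the lineage, at least 2.57-fold lower. With the mean of its probe sets Sox10 differed by only -0.30 and was not called (adjusted p = 0.399). As list means, distal arrays lay at 6.37 to 6.45 for neurons and 6.36 to 6.65 for glia, and proximal arrays at 6.73 to 7.46 and 7.37 to 7.74. The part of nerve tissue in the other differences was not tested.

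Skeletal muscle genes gave calls that depended on how the spread was estimated. Of 26, 1 was called lower, Lhx2, a LIM homeobox gene of muscle precursors of the head, which was at least 1.71-fold lower distally, and 0 higher, with a median of -0.59. Lhx2 lost its call without any 1 array other than distal replicate 3, and with arrays centred (adjusted p = 0.0605), quantile normalization (0.0539), probe-set means (0.0665), no trend (0.117) or the robust estimate (0.178). The 60-array fit called 2 of the 26 higher and 11 lower. Actc1, the cardiac actin that embryonic muscle also makes, had 11.34, 12.42 and 11.33 on the distal arrays, against 13.24, 11.37 and 12.13 on the proximal arrays (difference -0.55, SE 0.40, adjusted p = 0.80). Tnnt1, a troponin of slow muscle, had 10.60, 10.91 and 10.88 distally, against 11.69, 10.01 and 10.62 proximally (difference 0.02, SE 0.31). Myl4 had 6.61, 9.25 and 6.64 distally, against 10.45, 7.48 and 8.84 proximally. In each of these 3 genes an array of a group lay beyond the other group's mean, with distal replicate 2 high and proximal replicate 2 low. No muscle gene was called without distal replicate 1, proximal replicate 2 or proximal replicate 3. Of the 26 genes 5 had an unadjusted p under 0.05, and without distal replicate 2 and proximal replicate 1 9 were called.

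Markers of other cell types moved less. Of 18 surface epithelium genes limma called 0, with a median of 0.22. An unadjusted p under 0.05 was found for 5, and the 60-array fit called 5 higher and 1 lower. Dsp, a desmosome protein, had 10.90, 11.55 and 10.79 on the distal arrays, against 10.48, 10.45 and 10.45 on the proximal arrays (difference 0.62, SE 0.16, adjusted p = 0.116), so its groups did not overlap. Distal values lay wholly above proximal ones for 6.84% of all genes. Epcam, an epithelial adhesion protein, had 10.15, 10.43 and 10.40 distally, against 10.59, 10.20 and 10.25 proximally. Of 15 macrophage genes 0 were called and 13 had a negative difference (median -0.32). Of these genes 8 had an unadjusted p under 0.05, and the 60-array fit called 7 lower. Csf1r, the macrophage growth factor receptor, had 9.08, 9.17 and 8.88 distally, against 9.62, 9.37 and 9.30 proximally (adjusted p = 0.222), and Pf4, a chemokine, differed by 0.27 (SE 0.10). Red cell genes had 0 of 12 called, with 11 positive differences (median 0.30), 4 at an unadjusted p under 0.05 and 0 in the 60-array fit. Hbb-y, an embryonic globin, lay between 14.64 and 14.79 on all 6 arrays, while Hbb-bh1 had 13.63 on proximal replicate 1, against 14.12 to 14.44 on the other 5. In the lists of cell cycle (19 genes, median -0.01), endothelium (13, -0.02), pigment cells (7, -0.04), endoderm and thyroid (7, -0.01), Hox genes (12, 0.01), cardiac muscle (12, 0.08), bone (9, -0.17), hypoxia and glycolysis (12, 0.12) and mitochondrial and ribosomal proteins (10, 0.01) limma called no gene. Between 0 and 3 genes of each of these lists had an unadjusted p under 0.05, and the 60-array fit called between 0 and 4. Without proximal replicate 1, 3 of the 12 hypoxia and glycolysis genes were called. In both pieces, 3 of the 12 Hox genes and 4 of the 12 cardiac genes were at or under 4.78. Hoxd1, called lower distally (difference -2.51, adjusted p = 0.034), is not among the 12 listed Hox genes. Of 14 early response and stress genes Jun, an immediate early transcription factor, was called, with a difference of -0.94 (SE 0.10, adjusted p = 0.000603), with groups that did not overlap. Of 10 placode and sensory genes Gata3 and Eya1 were called higher and 0 lower (median 0.16). Of these 10, 1 was called without distal replicate 1, distal replicate 3 or proximal replicate 3, and 5 without proximal replicate 1.

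The same position contrast was set beside those of the other mandible ages, each fitted on its own 6 arrays. Distal and proximal arrays of an age share a batch. The E10.5 arrays are of the same batch as those of E11.5, while those of E12.5, E13.5 and E14.5 are of other batches. Between E11.5 and these later ages, a change with age therefore cannot be told apart from one with batch. With tighter replicates these fits called 25.8% of genes at E10.5 and 32.3% at E12.5, then 25.3% (E13.5) and 27.7% (E14.5). Of the 88 genes higher distally at E11.5, 83 (94.3%) had the same sign at E10.5, against 53% of all genes, and 72 were called in that direction there. At E12.5, 72 (81.8%) had the same sign, against 51.7% of all genes, with 60 called and 11 called the opposite way. Of the 212 genes lower distally, 167 (78.8%, against 47%) had the same sign at E10.5 with 134 called, and 180 (84.9%, against 48.3%) at E12.5 with 161 called. Most of these differences thus had the same sign in arrays that had no part in choosing them. Later the same sign was found for 63 (E13.5) and 65 (E14.5) of the 88 higher genes, against 52.5% and 51.8% of all genes, with 16 and 13 called the opposite way. For the 212 lower genes it was found for 178 (E13.5) and 155 (E14.5), against 47.5% and 48.2% of all genes, with 21 and 30 called the opposite way.

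Among the 15 named genes higher distally, 9 were called in that direction at every mandible age: Alx1, Dlg2, Msx2, Masp1, Dkk1, Sall4, Dpep1, Lrrn3 and Dio2. Alx1 differed by 2.43, 3.74, 5.74, 5.35 and 4.86 from E10.5 to E14.5. Others varied between ages, of which E12.5 and later lie in other batches than E11.5. Gata3 differed by 1.76, 1.84, -0.55, -0.06 and 0.31 from E10.5 to E14.5, and was called at each age but E13.5. Hpse2 differed by 0.04 at E10.5 and by 1.63 to 2.59 from E11.5 on. Aldh1a7 differed by -0.05 at E10.5, 1.47 at E11.5 and 1.20 at E12.5, and by -0.24 (E13.5) and -0.37 (E14.5), not called, later. Cited1 turned round, with 0.92, 1.82 and 0.82 at the first 3 ages and -0.75 and -1.48 at the last 2. Of the 15 named genes lower distally, 7 were called so at every age: Sim2, Fabp7, Shisa3, Lox, Tbx15, Bmper and Barx1. From E10.5 to E14.5 Shox2 differed by -1.69, -2.95, -0.39, 0.20 and -0.06. Over the same ages Tbx18 differed by -0.98, -2.73, 0.08, 0.26 and -0.19, and Gbx2 by -2.67, -3.00, -0.74, -0.72 and -0.07. Pitx1 and Emx2, lower distally at E10.5 (-1.39 and -1.64) and E11.5, were called higher at E12.5 (1.12 and 0.46).

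**Figure D4:**
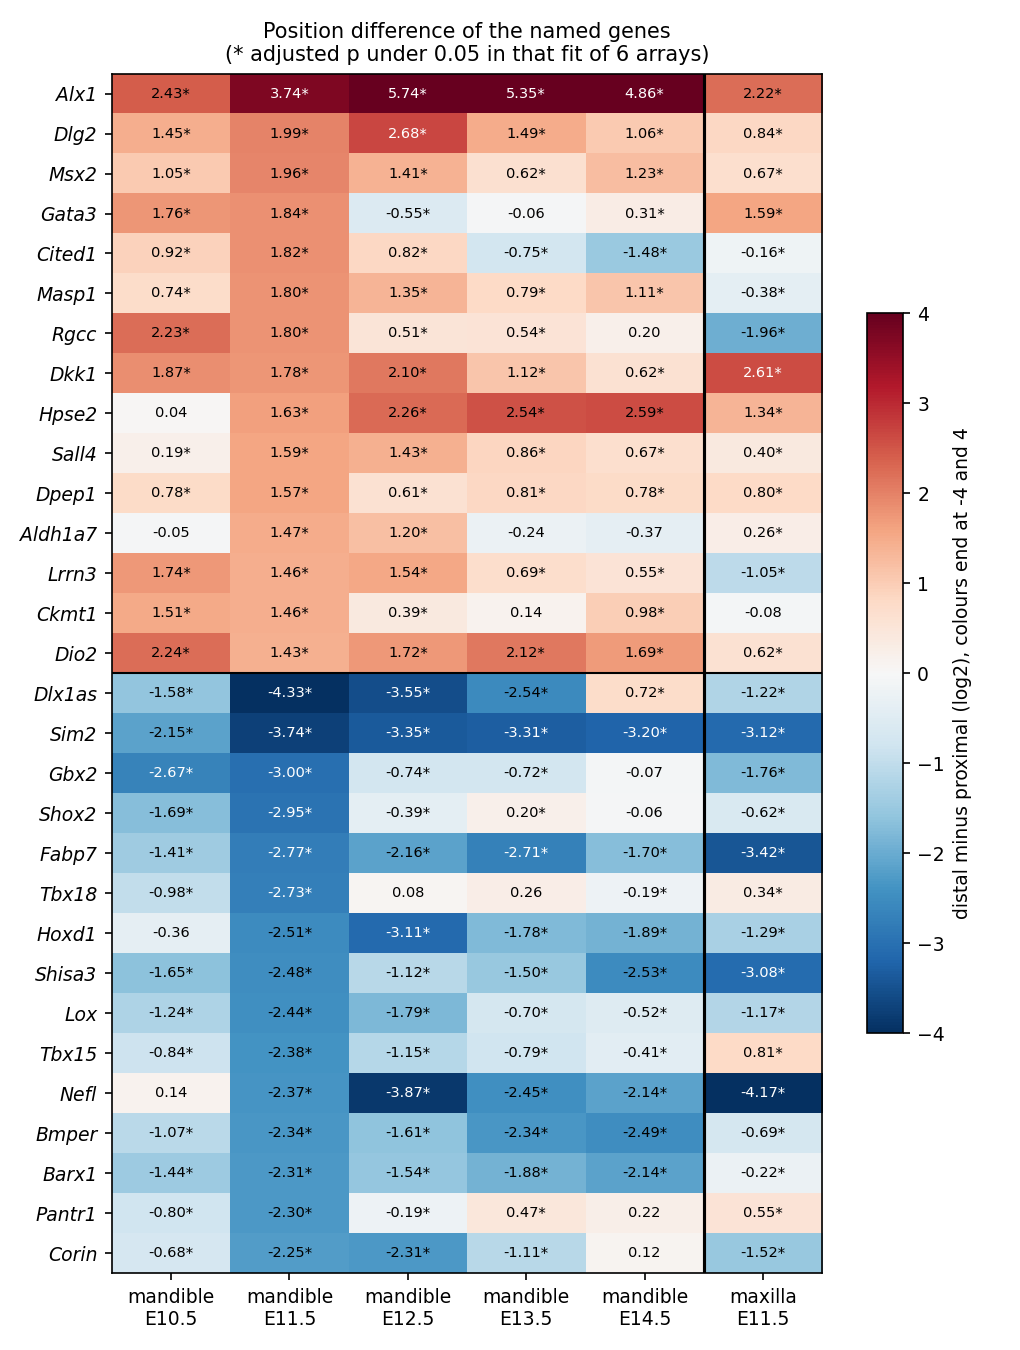
Distal minus proximal difference (log2) of the 30 named genes in the mandible from E10.5 to E14.5 and in the maxilla at E11.5, each from its own fit of 6 arrays, with an asterisk where the adjusted p is under 0.05. Rows run from Alx1 to Dio2 (higher distally at E11.5) and from Dlx1as to Corin (lower), and Alx1 and Sim2 keep their sign at every age.

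Whether the position difference itself changed from E10.5 was tested with an interaction over 12 arrays of batch 3. It was called for 686 genes (3.77%), 281 of them more positive at E11.5 (1.54%) and 405 more negative (2.23%). The count was 1238 without distal replicate 3 of E11.5, 441 without proximal replicate 3 of E11.5, and 362 to 384 without any 1 of distal replicates 2 and 3 and proximal replicates 1 to 3 of E10.5. Since the 30 named genes were chosen by their E11.5 difference, their share called here (8 of 15 higher and 11 of 15 lower) is not independent of that choice. Cardiac genes gave the most positive values. Myl2, the ventricular myosin light chain, averaged 4.31 in distal and 4.42 in proximal mandible at E11.5, against 4.54 and 11.73 in distal and proximal mandible at E10.5, so all but the last were under 4.78. Of 12 cardiac genes 7 were called in this interaction, with a median of 1.63, and none in the opposite direction. Nerve genes gave negative values: 6 of 16 were called, 0 positive, and Nefm changed by -2.77 (SE 0.30, adjusted p = 9.67e-05), with a difference of -1.67 at E11.5 and of 1.10 at E10.5. Of 15 macrophage genes 8 were called with a more negative difference at E11.5 and 0 with a more positive one. Decorin, the collagen-binding proteoglycan encoded by Dcn, averaged 9.26 ± 0.82 and 11.00 ± 0.79 in distal and proximal mandible at E11.5, against 8.45 ± 0.06 and 7.32 ± 0.18 at E10.5.

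The maxilla at E11.5, of the same batch, had 8343 genes (45.9%) called between its pieces, 25.7% higher distally and 20.2% lower, with median within-group SDs of 0.072 in its distal and 0.061 in its proximal piece. Of the 88 genes higher distally in the mandible, 53 (60.2%, against 59% of all genes) had the same sign there, and 29 were called the opposite way. Of the 212 lower genes, 158 (74.5%, against 41%) had the same sign, with 142 called and 40 called the opposite way. By sign alone, the share for genes higher distally is thus near that of all genes. The 53 genes of the same sign were all called higher there, 60.2% of the 88, against 25.7% of all genes. The interaction between the jaws was called for 2933 genes (16.1%), 1394 more positive in the mandible (7.66%) and 1539 more negative (8.46%), and for 4517 without distal replicate 3 of the mandible. It includes 12 of the 15 named higher and 10 of the 15 named lower genes, which were chosen on one side of it.

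Several genes differed in opposite directions in the 2 jaws. Hand2 differed by 1.36 in the mandible and by -1.32 in the maxilla, where it averaged 5.24 in the distal piece (interaction 2.68, SE 0.17, adjusted p = 4.25e-08). Rgcc differed by 1.80 in the mandible and -1.96 in the maxilla (interaction 3.76, SE 0.28, adjusted p = 2.3e-07), and Lrrn3 by 1.46 and -1.05. Tbx15 differed by -2.38 in the mandible and 0.81 in the maxilla (interaction -3.19, SE 0.17, adjusted p = 1.15e-08). Tbx18 followed it, with -2.73 and 0.34. Shox2 and Barx1 had the same sign in both jaws but larger differences in the mandible, -2.95 against -0.62 for Shox2 (interaction -2.33, SE 0.27) and -2.31 against -0.22 for Barx1 (interaction -2.08, SE 0.24). The 7 Bmp genes and the 5 Wnt genes called in the mandible were all called in the same direction in the maxilla. Of all genes called higher in the mandible 60.2% were called higher in the maxilla, and of those called lower 67% were called lower. Over all genes the maxilla shares were 25.7% higher and 20.2% lower. Over the whole lists the interaction was called for 2 of 17 Bmp genes upwards and 8 downwards, and for 0 of 17 Wnt genes upwards and 11 downwards. Nerve genes differed between the jaws, with 16 of 16 lower distally in the maxilla (median -3.82) and 15 of 16 called in the interaction.

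**Figure D5:**
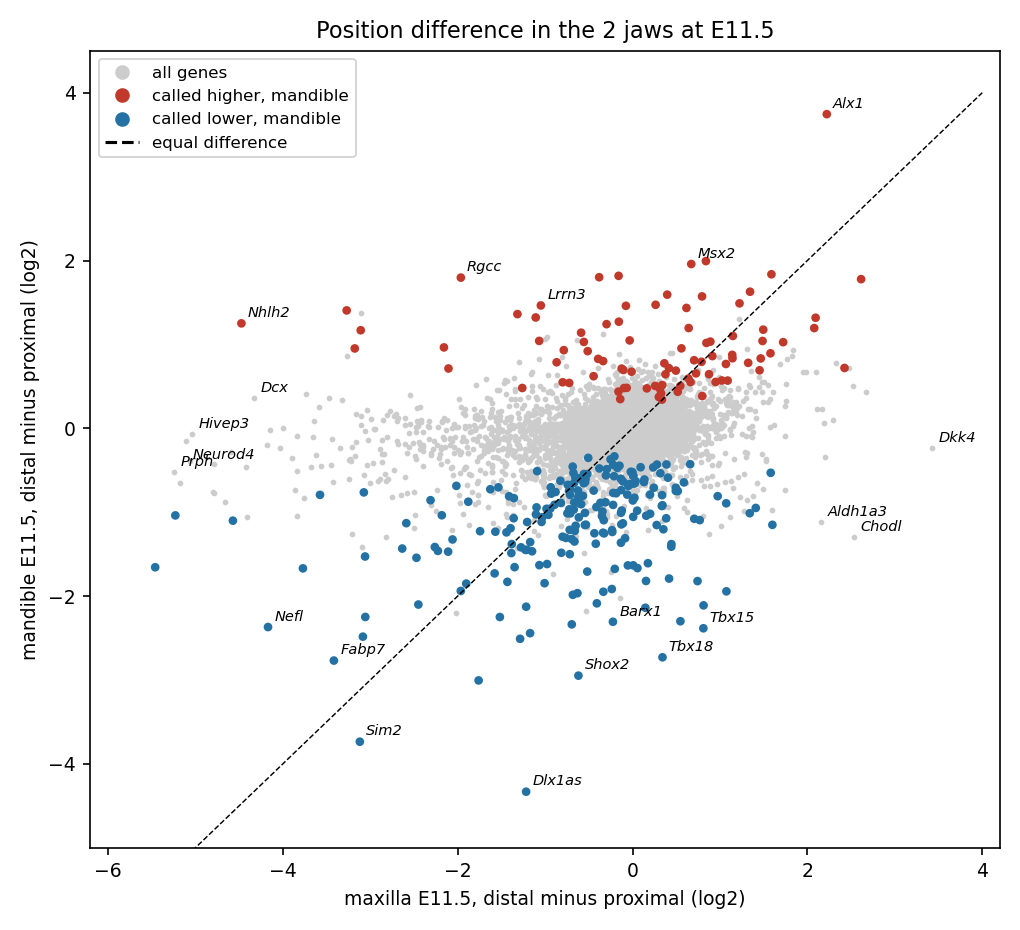
Distal minus proximal difference (log2) of each gene in the mandible (vertical) and the maxilla (horizontal) at E11.5, with genes called higher distally in the mandible in red, called lower in blue and all others in grey, and a dashed line of equal differences. Alx1 lies at 3.74 and 2.22, Tbx15 at -2.38 and 0.81, and the nerve gene Dcx at 0.36 and -4.33.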

How the data were processed

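Total RNA from dissected jaw pieces was hybridised to Affymetrix mouse arrays. The deposited values are log2 signals made by the authors with RMA, per the submitters' processing notes; its version, and whether all arrays were normalized together, are not given in the sources used here. The table holds 45101 probe sets, of which 34945 carry a single gene symbol in GEO's platform annotation (2016), 932 several and 9160 none. Symbols of 34741 were matched to RefSeq. Each of 18193 genes was read from its probe set of highest mean across the 60 arrays. limma 3.58.1 (R 4.3.3; lmFit, eBayes with trend, two-sided, Benjamini-Hochberg over all genes) was fitted to the 6 arrays alone, with 4 residual degrees of freedom, because of their spread; the same fit was made for other ages and the maxilla, and interactions over 12 arrays. The fit was checked on simulated data. The 15 genes named per direction had the largest called differences with a higher group mean of at least 6, leaving out predicted and sex-linked genes. Up to 4 called members were named per list by smallest p, otherwise the 2 with the highest level, and 5 genes per direction for each interaction and outlying array. Members and lists were chosen with earlier results of these data known. Alternatives are given in the closing section. Figures were drawn with matplotlib 3.10.9.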

Additional observations from a re-analysis of the deposited data

Results flagged for a closer look

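Position differences that differed between the jaws or between ages, by a limma interaction, are given here for the 5 genes with the largest value in each direction. Groups of 3 arrays were not tested for single outlying arrays. All values are the E11.5 mandible's distal minus proximal difference minus that of the other group, on the log2 scale.

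Against the maxilla of the same age, nerve cell genes led upwards. Nhlh2, a bHLH factor of young neurons, had an interaction of 5.72 (SE 0.30, adjusted p = 1.09e-08), from 1.25 in the mandible and -4.47 in the maxilla. Dcx, a microtubule protein of migrating neurons, had 4.68, Prph, an intermediate filament of peripheral neurons, 4.72, Hivep3, a zinc finger protein, 4.96, and Neurod4 4.96. In the mandible itself Dcx differed by 0.36, Prph by -0.52, Hivep3 by -0.07 and Neurod4 by -0.15, none of them called. Their differences in the maxilla were -4.33, -5.24, -5.03 and -5.10. Hivep3 and Neurod4 had a group at or under 4.78, so the size of their values is uncertain. Downwards, Chodl had -3.83 (SE 0.76), with a distal SD of 1.46 in the mandible. Dkk4, a secreted Wnt inhibitor, had -3.66, from -0.24 in the mandible and 3.43 in the maxilla. Aldh1a3, which makes retinoic acid, had -3.28, Tbx15 -3.19 and Dlx1as -3.11.

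Against E10.5, heart genes led upwards, with 7.09 for Myl2, 5.11 for Myl7, 3.96 for Myh6, 3.65 for Tnnt2 and 3.13 for Ankrd1. Myl7, an atrial light chain, differed by 0.05 at E11.5 and by -5.07 at E10.5. The other 4 had a group at or under 4.78. Tnnt2 had an SD of 1.40 in distal and 1.12 in proximal mandible at E11.5. Downwards stood Dcn with -2.87, Synpo2, an actin-binding protein, with -2.79, Nefm with -2.77, Dlx1as with -2.75 and Prap1 with -2.58. The Dlx1as value was not called without distal replicate 3 (adjusted p = 0.0643), proximal replicate 2 (0.05) or proximal replicate 3 (0.0509) of E10.5, or without proximal replicate 3 of E11.5 (0.057). These fits pool the wide spread of the E11.5 mandible with that of tighter groups. With a weight for each group 3187 genes were called against the maxilla and 845 against E10.5.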

How the results depend on the processing

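The 300 calls (88 higher, 212 lower) became 1625 (578, 1047) with all 60 arrays in the fit, 1135 (423, 712) with the 18 arrays of batch 3, 4969 (2298, 2671) with array quality weights, 170 (43, 127) without the mean-variance trend and 149 (36, 113) with a 2-fold limit. They were 681 (282, 399) without distal replicate 3 and proximal replicate 1, and 570 (242, 328) without distal replicate 2 and proximal replicate 1, which was chosen after seeing the data. Leaving out each array in turn gave 138 to 399 calls, 33 to 188 of them higher and 104 to 211 lower. Same-numbered arrays correlated at -0.222, -0.356 and 0.095 in their deviations from the group means, and differently numbered ones at -0.194 to 0.374. With 3 arrays a group, these values cannot show whether the replicate numbers pair the arrays. With the replicate block 406 genes were called (117 higher, 289 lower), 2686 against the maxilla and 521 against E10.5. The 2933 calls against the maxilla became 4413 with 60 arrays and 5724 without distal replicate 3 and proximal replicate 1, and 2085 to 4517 with each array left out. The 686 calls against E10.5 became 2154, 1926 and 362 to 1238. Without distal replicate 3, 1238 and 4517 were called, and the array weights were lowest for that array (0.217). No called gene changed direction in any alternative. Of the named genes Hoxd1 lost its call in 10 of 17 alternatives, Hpse2 in 6 of 17 and Dio2 in 6 of 18. The robust variance estimate gave 314 calls but kept 21 of the 30 named ones, losing these 3 and Dlx1as (adjusted p = 0.164), Gbx2 (0.16), Dlg2 (0.12), Pantr1 (0.109), Rgcc (0.0851) and Bmper (0.0608). Among list members it also lost Bmp4 (0.119), Wnt5a (0.378), Pou3f3 (0.102), Nr2f1 (0.335), Emx2 (0.446), Dlx2 (0.121), Dlx3 (0.0822), Nefm (0.119) and Lhx2 (0.178). Wnt5a, Dlx2 and Dlx3 also lost their calls with arrays centred, with quantile normalization, with probe-set means and with no trend. So did Emx2, Eya1, Pax9, Col11a1, Sox10 and Id2. Leaving out any 1 array other than proximal replicate 1 cost Wnt5a, Dlx2, Dlx3, Id1, Smad7 and Sp6 their calls. Uncalled genes near 0 changed sign: Tnnt1 (0.02) had -0.0053 with arrays centred and -0.36 to 0.48 with each array left out. Epcam (-0.02) had 0.0785 with the mean of its probe sets, -0.0947 to 0.10 with each array left out, 0.067 without distal replicate 3 and proximal replicate 1, and 0.0495 without distal replicate 2 and proximal replicate 1. Without distal replicate 3 and proximal replicate 1, Actc1 had 0.13 and Hbb-bh1 -0.007. The cause was not tested.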
